A study of Mus musculus with 24 samples.

Results

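The genes described here are 37 genes of cholesterol and fatty acid synthesis. They comprise 19 enzymes of the sterol pathway, 6 regulators and carriers of sterol, and 12 enzymes of fatty acid synthesis, desaturation, elongation and activation. They were chosen by name, and every probe set annotated with one of these symbols alone was taken from both array designs. A gene was represented by its probe set with the highest mean over the 12 cultures, with the design named MA preferred over the design named MB. Of the 37 genes, 36 had such a probe set, 34 of them chosen on MA and 2 on MB, and 35 passed the filter on dim probe sets. These 36 genes have 83 probe sets in all, of which 71 were tested. The series holds 18194 genes with a probe set of their own.

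The cells were C2C12, 1 line of mouse myoblasts able to form myotubes, and their total RNA was biotin-labelled for hybridisation to oligonucleotide arrays. The 4 groups were cells in DM at 5 mM glucose (DM_5mM), in DM at 25 mM glucose (DM_25mM), in GM at 5 mM glucose (GM_5mM) and in GM at 25 mM glucose (GM_25mM), with 3 cultures each, every culture being measured on both designs. The labels give GM and DM only as abbreviations, which in this line commonly stand for growth medium and differentiation medium. The serum and the times spent in each medium and at each glucose level are not given in the sources used here, and the study's stated interest was how calorie restriction bears on the differentiation of myoblasts. Nothing beyond the numbers in the titles says that the cultures of a group were grown separately, so the spread behind each p-value may be technical.

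Cholesterol and the isoprenoids are built from acetyl-CoA through mevalonate, squalene and lanosterol, and fatty acids from the same acetyl-CoA through malonyl-CoA. Most enzymes of both routes are transcribed under the sterol regulatory element binding proteins, SREBP, which are made as membrane precursors in the endoplasmic reticulum. When membrane cholesterol is low, the escort protein Scap carries them to the Golgi, where they are cut to release the active factor, and when it is high, the Insig proteins hold Scap and its cargo back. Myoblasts fuse through their plasma membranes and build new membrane systems as they become myotubes, and cholesterol is a constituent of those membranes.

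Promoter windows are shown for 5 of the genes, since the results below turn on them: 4 whose RNA was higher in DM at both glucose levels (Hmgcs1, Msmo1, Idi1 and Insig1) and 1 whose RNA was lower in DM at both (Scap). Each window runs from 250 bases before to 50 bases after a RefSeq start of the gene, 5′ to 3′ on the gene's strand, in build GRCm38.p6. Capitals mark the sterol response element TCACNCCAC and the CCAAT box, which reads ATTGG when it lies on the opposite strand. The windows are chr13:119690101-119690400 on the plus strand for Hmgcs1, chr8:64733529-64733828 on the minus strand for Msmo1, chr13:8885356-8885655 on the plus strand for Idi1, chr5:28071162-28071461 on the plus strand for Insig1 and chr9:110333038-110333337 on the plus strand for Scap, the first of 2 starts given for that gene.
Hmgcs1: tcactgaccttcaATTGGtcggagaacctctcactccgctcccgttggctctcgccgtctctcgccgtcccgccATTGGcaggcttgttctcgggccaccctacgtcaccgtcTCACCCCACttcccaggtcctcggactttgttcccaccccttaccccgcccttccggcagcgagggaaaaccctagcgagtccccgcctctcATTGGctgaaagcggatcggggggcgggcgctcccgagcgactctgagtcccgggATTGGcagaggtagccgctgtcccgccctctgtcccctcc
Msmo1: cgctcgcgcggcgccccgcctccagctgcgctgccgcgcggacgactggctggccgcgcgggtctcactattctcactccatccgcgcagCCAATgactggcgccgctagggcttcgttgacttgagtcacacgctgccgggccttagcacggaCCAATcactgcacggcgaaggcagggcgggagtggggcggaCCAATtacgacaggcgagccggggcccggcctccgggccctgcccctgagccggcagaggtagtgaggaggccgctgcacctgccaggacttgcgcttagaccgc
Idi1: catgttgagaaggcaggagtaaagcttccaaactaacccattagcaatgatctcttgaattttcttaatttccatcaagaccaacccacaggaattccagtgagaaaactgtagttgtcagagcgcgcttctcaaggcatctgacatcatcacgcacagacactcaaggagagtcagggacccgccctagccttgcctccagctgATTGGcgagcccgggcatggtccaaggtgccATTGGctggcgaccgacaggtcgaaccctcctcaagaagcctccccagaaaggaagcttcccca
Insig1: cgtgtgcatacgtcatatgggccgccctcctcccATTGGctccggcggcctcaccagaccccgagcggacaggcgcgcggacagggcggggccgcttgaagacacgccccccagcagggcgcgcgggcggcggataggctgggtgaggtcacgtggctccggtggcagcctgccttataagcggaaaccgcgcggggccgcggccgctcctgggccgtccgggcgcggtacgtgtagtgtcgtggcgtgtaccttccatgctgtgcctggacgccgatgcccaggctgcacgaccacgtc
Scap: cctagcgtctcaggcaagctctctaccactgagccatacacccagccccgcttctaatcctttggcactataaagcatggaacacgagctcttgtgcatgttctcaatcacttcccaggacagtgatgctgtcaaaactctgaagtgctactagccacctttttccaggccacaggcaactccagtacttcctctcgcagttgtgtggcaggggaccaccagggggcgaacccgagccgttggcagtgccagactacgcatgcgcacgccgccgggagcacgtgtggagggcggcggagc

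RefSeq promoter windows were found for 30 of the 37 genes, 39 windows in all. A CCAAT box, the sequence read by the factor NF-Y, was present on either strand in 26 of these windows (66.67%) and in 25 of the 30 genes, against 37.41% of the 32851 mouse windows in the table and 37.1% of the 13201 windows of genes tested on these arrays. Hmgcs1 had 4 CCAAT boxes, Msmo1 3, Idi1 2, Insig1 1 and the Scap window shown 0. Lbr, the other gene whose RNA was lower in DM at both glucose levels, had CCAAT boxes too, with first bases at -68 and -28. Whether the boxes go with the direction in DM was not tested. The GC box GGGCGG, read by Sp1, was present in 74.36% of the windows of the genes, against 59.06% of the windows of tested genes and 35.66% of all windows. The strict sterol response element TCACNCCAC was found in 1 window, that of Hmgcs1, with its first base 137 bases before the start, against 1.242% of all windows. The muscle E-box CAGCTG was in 12.82% of the windows against 16.3% of all windows, and the palindrome TCACGTGA, an E-box bound by SREBP and ChREBP, was in 0 of the 39 against 0.974% of all. Matches of different motifs did not overlap in these windows. A match describes letters in a window and not a site of binding, and the motifs allow no mismatch.

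**Figure D1:**
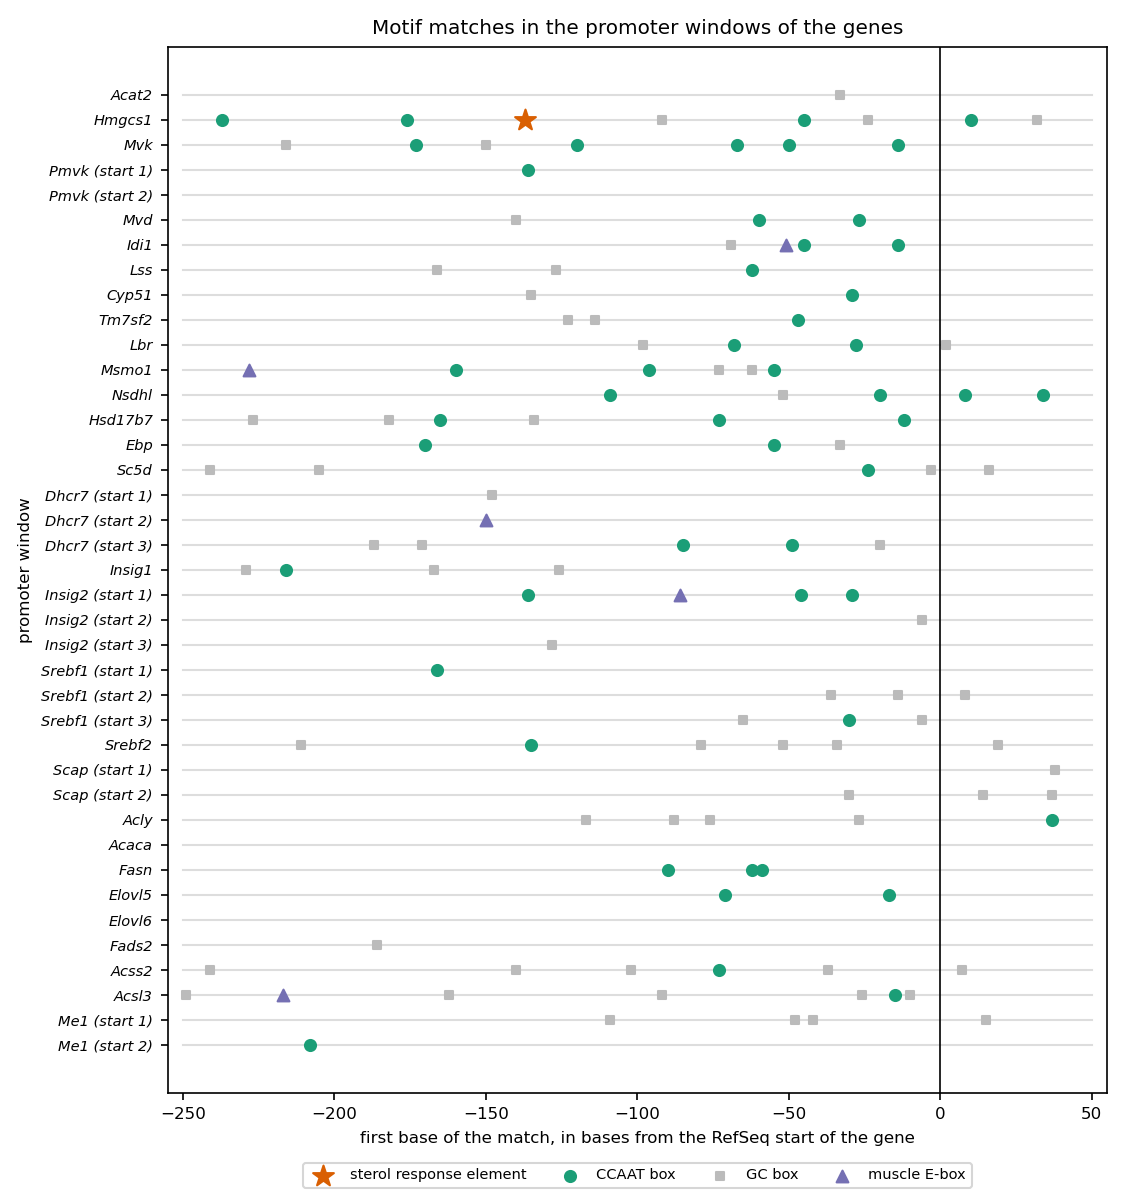
Positions of motif matches in the RefSeq promoter windows of the genes, 1 line a window, with the distance of the first base of the match from the annotated start in bases on the x axis. Circles are CCAAT boxes, grey squares GC boxes, triangles muscle E-boxes and the star the sterol response element, which appears in the Hmgcs1 window alone, while CCAAT boxes are in 26 of the 39 windows.

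The arrays had been scaled before deposit, and the mean intensity after trimming was close to 150 on each. All 6 markers of differentiating muscle tested were higher in DM at both glucose levels, with summed intensities of 17750 to 42210 over the DM cultures and 79.5 to 218.7 over the GM cultures, and 4 of 4 genes of cycling cells were lower in DM at both. Of 7 adipocyte markers 5 had a probe set and 1 was bright enough to be tested (Retn, not called), with Adipoq, Fabp4, Lep and Cidec below the filter and summed intensities of 70.0 to 124.4 in DM and 89.7 to 168.1 in GM. The control for 18S ribosomal RNA divided the cultures in a way the labels do not give. It read 11.5 to 19.8 on MA in 4 cultures (DM_5mM-2, DM_25mM-3, GM_5mM-1 and GM_5mM-2), which are named the low-18S cultures below. The remaining 8, the high-18S cultures, read 158.6 to 907.9, and GM_25mM held no low-18S culture. The log2 ratio of the 3′ to the 5′ control probe sets of Actb on MA, a sign of RNA integrity, was 0.10 to 0.37 in DM_5mM, 0.12 to 0.18 in DM_25mM, -0.05 to 0.38 in GM_5mM and 0.34 to 0.55 in GM_25mM, and its part in the results was not tested. In these bulk samples, fewer cells of a type and less RNA per cell cannot be told apart.

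Most sterol enzymes were higher in DM than in GM. Their tested RNAs had a median log2 change of 1.22 in DM against GM at 5 mM glucose and of 0.70 at 25 mM, where all tested probe sets had medians of -0.03 and -0.09. At 5 mM 14 of 18 were called higher and 1 lower, and at 25 mM 11 were called higher and 1 lower. A call is an adjusted p under 0.05 in limma with Benjamini-Hochberg adjustment over all tested probe sets of a design, and changes are differences of log2(intensity + 20), a scale that understates the changes of dim probe sets. Where a pair of changes is given for a gene, the first is at 5 mM and the second at 25 mM. On MA, 11.9% of all tested probe sets were called higher and 16.8% lower at 5 mM, and 15.1% were called higher and 20.2% lower at 25 mM. With median centring, calls at 25 mM over both designs were 3553 higher and 1872 lower, against 2637 and 3093. The 11 enzymes called higher at 25 mM were among the 14 at 5 mM. The medians of the sterol enzymes in single cultures, relative to the GM_25mM mean, were 1.32, 1.04 and 1.14 in DM_5mM, 0.78, 0.83 and 0.60 in DM_25mM and 0.18, 0.02 and 0.09 in GM_5mM, so the cultures of the DM groups lay above all GM cultures and those of DM_5mM above those of DM_25mM. Muscle markers and genes of cycling cells moved with the medium too, and their part in this result was not tested.

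**Figure D2:**
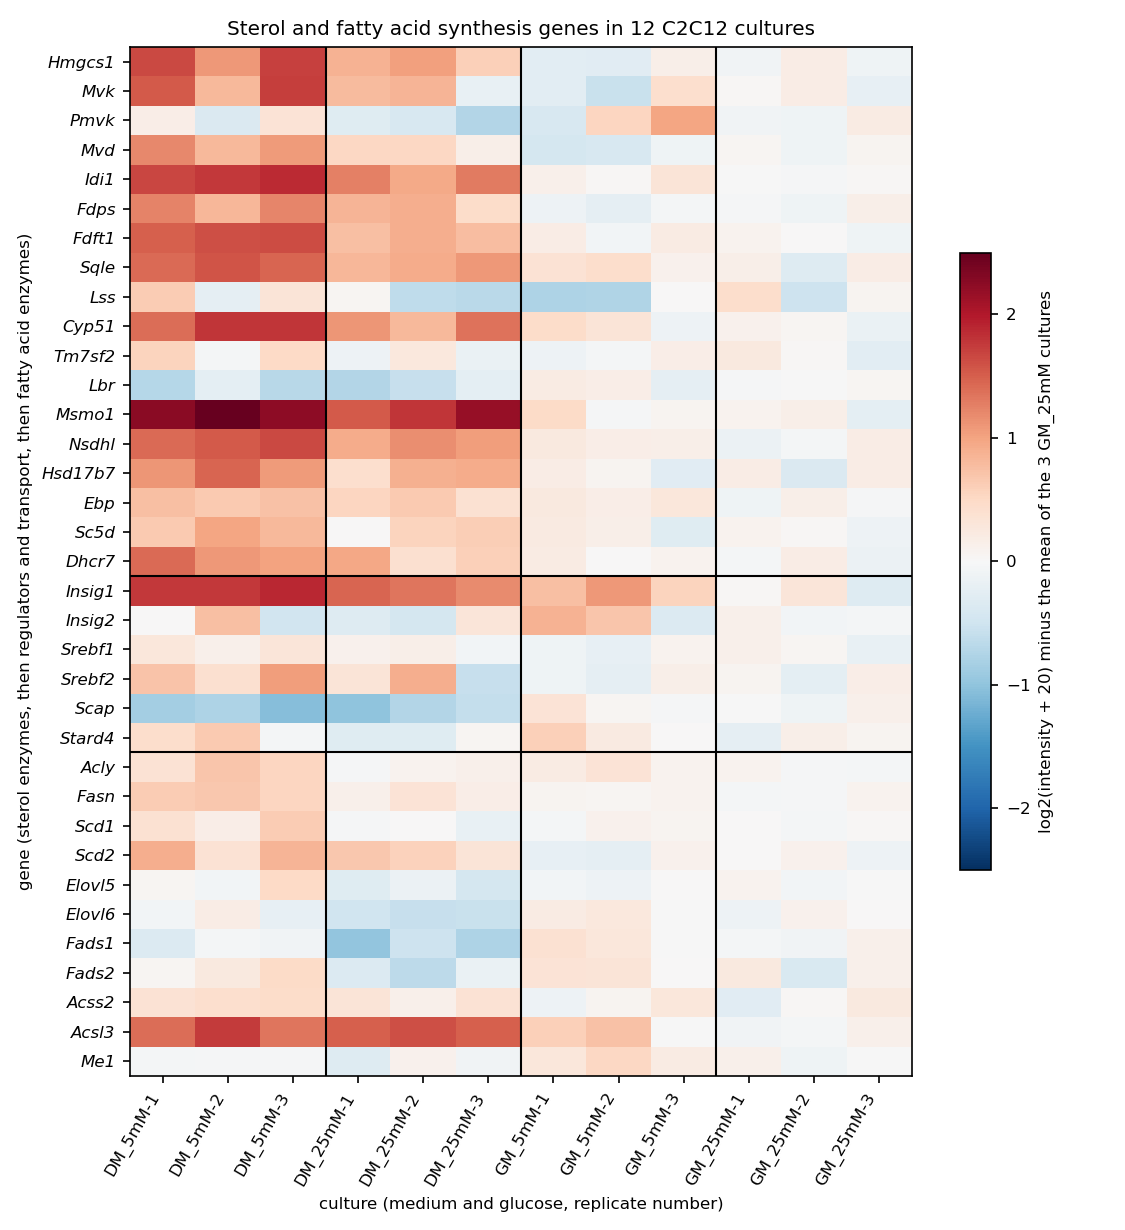
Each cell is the log2(intensity + 20) of 1 gene in 1 culture minus the mean of that gene in the 3 GM_25mM cultures, for the 35 tested genes in the order of the pathway, with red for higher and blue for lower. Most sterol enzymes (top block) are red in the 6 DM cultures and deepest in DM_5mM, while the fatty acid enzymes (bottom block) are mixed.

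The pathway's early steps lead from acetyl-CoA to mevalonate and on to the isoprene units. Hmgcs1, the cytosolic HMG-CoA synthase, had intensities of 4075, 2768 and 4246 in DM_5mM, 2382, 2661 and 1970 in DM_25mM, 1064, 1049 and 1436 in GM_5mM and 1219, 1475 and 1192 in GM_25mM. All 6 DM cultures lay above all 6 GM cultures, and the 3 DM_5mM values above the 3 DM_25mM values. The change in DM against GM was 1.62 (SE 0.19, adjusted p = 1.40e-05) at 5 mM, a fold of 3.07, and 0.84 (SE 0.19, adjusted p = 0.0033) at 25 mM, a fold of 1.79. Other probe sets of a gene are counted here and below only where they were tested, which leaves out a dim one of Hmgcs1 on MB. The 3 others of Hmgcs1 were also called higher at both, with smaller changes at 5 mM, from 0.81 to 1.26. In them the DM_5mM and DM_25mM cultures overlapped. For Acat2, the acetyl-CoA acetyltransferase of the step before it, no probe set was assigned, and it was not analysed here.

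Mevalonate is then phosphorylated by Mvk and Pmvk and decarboxylated by Mvd. Mvk had 239.7, 138 and 281 in DM_5mM, 136, 143 and 59.3 in DM_25mM, 54.99, 41.6 and 101 in GM_5mM and 71.5, 82.6 and 57.98 in GM_25mM. Its DM_5mM cultures lay above all GM cultures, whereas the DM_25mM cultures overlapped those of GM_25mM, with DM_25mM-3 the lowest of them. Its change was 1.49 (SE 0.32, adjusted p = 0.00238) at 5 mM and 0.49 (SE 0.32, adjusted p = 0.251), not called, at 25 mM. The other probe set of Mvk was not called at either level, with 0.56 (SE 0.36) at 5 mM and 0.54 (SE 0.36) at 25 mM, and its groups overlapped at both. Mvd had 309, 231 and 278 in DM_5mM, 184, 184 and 138 in DM_25mM, 84.8, 88.3 and 112 in GM_5mM and 127, 112 and 129 in GM_25mM, and each DM group lay above the GM group at the same glucose. Its change was called at 5 mM, at 1.35 (SE 0.16, adjusted p = 1.81e-05), and not at 25 mM, at 0.40 (SE 0.16, adjusted p = 0.073). Both genes were called at 25 mM with the 18S batch as a block, where the log2 changes were 0.78 for Mvk (adjusted p = 0.000988) and 0.51 for Mvd (adjusted p = 0.00343). Pmvk differed from its neighbours, with log2 changes of -0.33 at 5 mM and -0.48 at 25 mM, neither called.

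Idi1, the isomerase that makes the second isoprene unit, had 712, 766 and 818 in DM_5mM, 528, 422 and 548 in DM_25mM, 232, 216 and 269.9 in GM_5mM and 209, 207 and 216 in GM_25mM. These values did not overlap between DM and GM, nor between the glucose levels in DM, and its change in DM against GM was 1.60 (SE 0.13, adjusted p = 2.60e-07) at 5 mM and 1.16 (SE 0.13, adjusted p = 6.00e-06) at 25 mM. Fdps, which joins isoprene units into farnesyl diphosphate, the branch point to sterols and to protein prenylation, had log2 changes of 1.23 at 5 mM and 0.74 at 25 mM, both called. Fdft1, the squalene synthase that commits farnesyl diphosphate to sterols, had 935, 1006 and 1021 in DM_5mM, 549.6, 609 and 554 in DM_25mM, 363, 300.3 and 370.3 in GM_5mM and 338, 320.5 and 294 in GM_25mM. The 4 groups stood in the order DM_5mM, DM_25mM, GM_5mM and GM_25mM by their means, with an overlap only between the GM groups. Its change was 1.47 (SE 0.12, adjusted p = 2.22e-07) at 5 mM and 0.81 (SE 0.12, adjusted p = 7.51e-05) at 25 mM. Sqle, the squalene epoxidase, was higher in DM as well, by 1.19 at 5 mM and 0.95 at 25 mM.

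The steps after squalene close the ring and remove methyl groups. Lss, the cyclase that forms lanosterol, was not called through its chosen probe set, with changes of 0.74 (SE 0.30) at 5 mM and -0.42 (SE 0.30) at 25 mM. A dimmer probe set of the same gene was called at 5 mM (0.80, adjusted p = 0.0184) and not at 25 mM (-0.11). Cyp51, the lanosterol demethylase, was higher in DM by 1.44 at 5 mM and 1.09 at 25 mM, both called, while its other probe set was called at 5 mM (0.96) and not at 25 mM (0.75, adjusted p = 0.0839). Msmo1, the C4-methylsterol oxidase, had the largest change in DM of the 35 tested genes at both glucose levels, with intensities of 956, 1956 and 945 in DM_5mM, 572, 689 and 914 in DM_25mM, 266, 182 and 195 in GM_5mM and 198, 209 and 154 in GM_25mM. Its lowest DM culture was more than the highest GM culture, although DM_5mM-2 read well above the other DM_5mM cultures. The change was 2.41 (SE 0.25, adjusted p = 4.35e-06) at 5 mM, a fold of 5.31, and 1.83 (SE 0.25, adjusted p = 5.37e-05) at 25 mM, a fold of 3.57.

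Nsdhl and Hsd17b7 work with Msmo1 in the removal of the C4 methyl groups, and both were called higher in DM at both glucose levels. Nsdhl changed by 1.36 at 5 mM and 1.04 at 25 mM, and Hsd17b7 by 1.21 and 0.75. Probe sets of Hsd17b7 disagreed at 25 mM, where 1.32 was measured on MB, while -0.26 on MB and -0.21 on MA were not called, and with the mean of its probe sets the change was 0.27 (adjusted p = 0.326). Without GM_25mM-2 it was 0.57 (adjusted p = 0.0533). Among the last enzymes, Dhcr7, which reduces 7-dehydrocholesterol to cholesterol, changed by 1.07 and 0.66, both called. Ebp, the sterol isomerase, changed by 0.48 and 0.52, also both called. Sc5d, the lathosterol oxidase, was called at 5 mM (0.79) and not at 25 mM (0.39), where its probe set on MB was called (1.23, adjusted p = 0.00323). A second probe set of Sc5d on MA was called at neither (1.24 and -0.02).

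The 2 enzymes that reduce the C14 double bond did not follow the rest. Tm7sf2 was not called, with 0.33 (SE 0.20) at 5 mM and -0.01 (SE 0.20) at 25 mM. Lbr, the lamin B receptor, which also tethers heterochromatin to the inner nuclear membrane, had 206, 292 and 208 in DM_5mM, 202, 226 and 290.3 in DM_25mM, 408, 392 and 298 in GM_5mM and 341, 344 and 361 in GM_25mM. All DM cultures lay below all GM cultures, by a narrow margin between DM_5mM-2 at 291.6 and GM_5mM-3 at 297.5. It was the 1 sterol enzyme called lower in DM, with changes of -0.60 (SE 0.17, adjusted p = 0.0137) at 5 mM and -0.52 (SE 0.17, adjusted p = 0.025) at 25 mM. The call at 5 mM ended without DM_5mM-1, DM_5mM-3, GM_5mM-1 or GM_5mM-2, left out singly (adjusted p = 0.0576 to 0.0677), and with the high-18S cultures alone (adjusted p = 0.0844). The call at 25 mM ended without DM_25mM-1, DM_25mM-2 or any 1 GM_25mM culture (adjusted p = 0.0528 to 0.103) and with median centring (-0.32, adjusted p = 0.178).

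**Figure D3:**
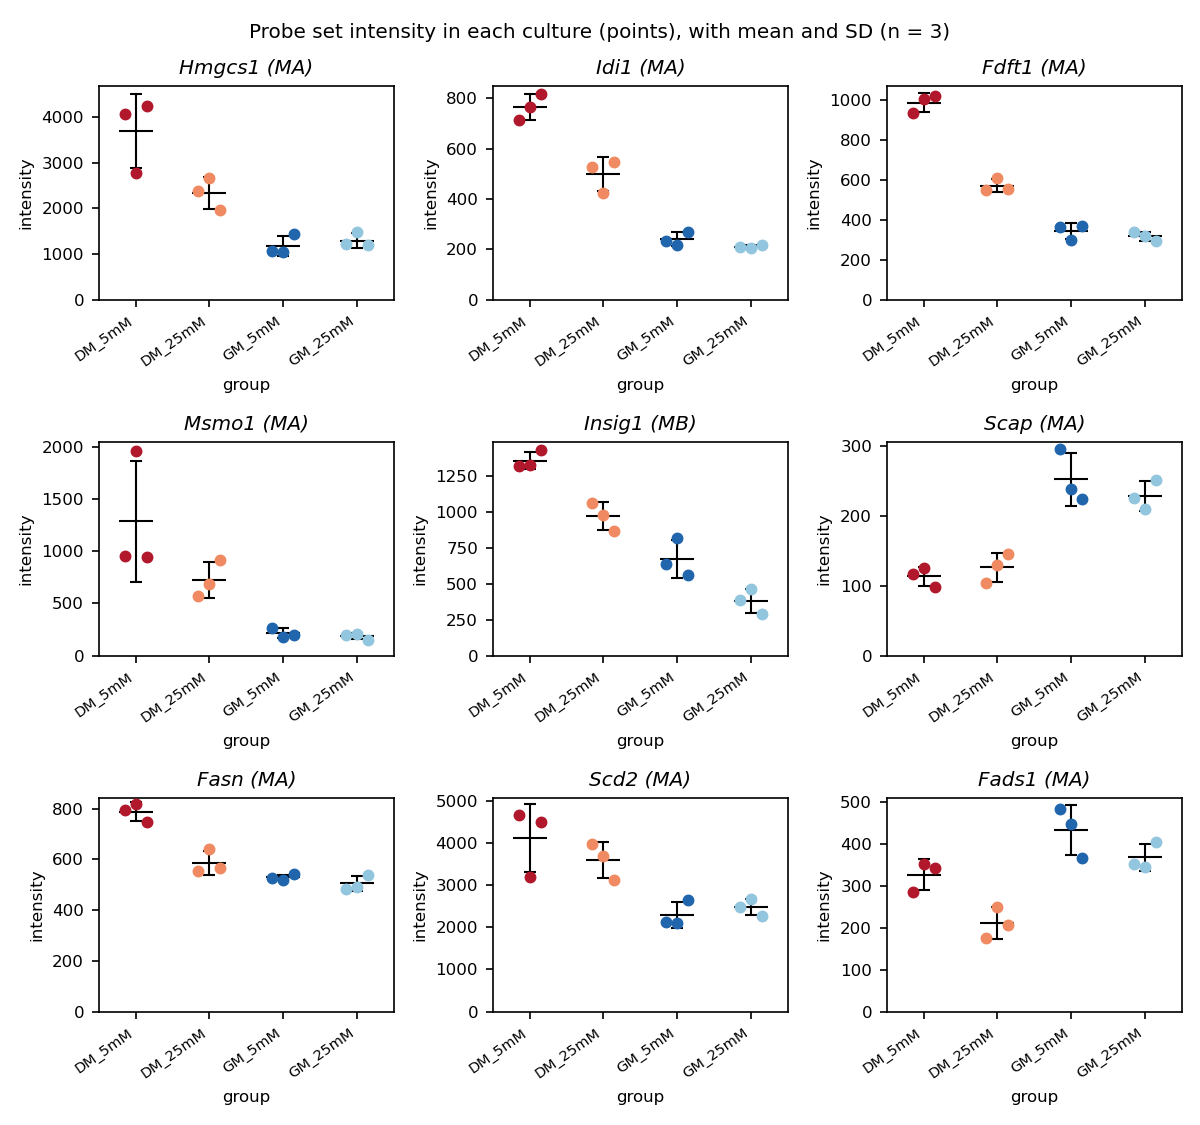
Intensity of the chosen probe set in each of the 12 cultures for 9 genes, with points for cultures, bars for the mean and whiskers for the SD (n = 3 per group), on linear axes from 0. Hmgcs1, Idi1, Fdft1, Msmo1 and Insig1 are highest in DM_5mM and lowest in GM, Scap is lower in every DM culture than in every GM culture, and Fads1 is lowest in DM_25mM.

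Of the 6 regulators and carriers, 2 were called higher and 1 lower in DM at 5 mM, and 1 higher and 1 lower at 25 mM. The shares of all tested MA probe sets were 11.9% higher and 16.8% lower at 5 mM, and 15.1% higher and 20.2% lower at 25 mM. Both counts at 25 mM and the lower count at 5 mM were near those shares. Insig1, which retains Scap in the endoplasmic reticulum and is itself a target of SREBP, had intensities on MB of 1318, 1321 and 1427 in DM_5mM, 1059, 977 and 867 in DM_25mM, 637, 814 and 561 in GM_5mM and 383, 462 and 292 in GM_25mM. Every DM culture lay above every GM culture, and within each medium every culture at 5 mM lay above every culture at 25 mM. Its change in DM was 1.01 (SE 0.20, adjusted p = 0.00319) at 5 mM and 1.32 (SE 0.20, adjusted p = 0.000201) at 25 mM. On MB, where this probe set was tested, fewer probe sets were called than on MA, and over both designs 7.47% were called higher at 5 mM and 9.74% at 25 mM. Insig2, its paralog, was not called, with -0.31 (SE 0.32) at 5 mM and -0.16 (SE 0.32) at 25 mM. With the 18S batch as a block it was called lower at 25 mM (-0.47, adjusted p = 0.0228), while the value at 5 mM was -0.00211 (adjusted p = 0.994).

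Scap, the escort that Insig1 retains, was lower in DM. It had 118, 126 and 98.6 in DM_5mM, 104, 129.8 and 145 in DM_25mM, 296, 238 and 224 in GM_5mM and 226, 209.7 and 252 in GM_25mM, so that the highest DM culture lay below the lowest GM culture. Its change was -1.02 (SE 0.16, adjusted p = 0.000171) at 5 mM and -0.77 (SE 0.16, adjusted p = 0.00149) at 25 mM, whereas its probe set on MB was not called (-0.10 and -0.26) and overlapped. Srebf2, which encodes the SREBP that acts mainly on sterol genes, had 1098, 889.6 and 1387 in DM_5mM, 840.5, 1260 and 440.5 in DM_25mM, 616, 565 and 736 in GM_5mM and 695, 561 and 752 in GM_25mM. DM_5mM lay above both GM groups, while DM_25mM spread from 440.5 to 1260 and overlapped them. The change at 5 mM was 0.78 (SE 0.28, adjusted p = 0.049), and several alternatives ended this call, among them the fit without the filter (adjusted p = 0.0785), the high-18S cultures alone (adjusted p = 0.0542) and leaving out DM_5mM-3 (0.62, adjusted p = 0.180). At 25 mM its chosen probe set was not called (0.22), while a second probe set was (0.67, adjusted p = 0.00412), which in turn was not called at 5 mM (0.39, adjusted p = 0.0773). Srebf1, whose products act mainly on fatty acid genes, changed by 0.30 (SE 0.12) at 5 mM and 0.06 (SE 0.12) at 25 mM and was not called. Stard4, a cytosolic sterol carrier, was not called either (0.07 and -0.18).

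The fatty acid enzymes were mixed in direction. Of 11 tested, 3 were called higher and 0 lower in DM at 5 mM, with a median log2 change of 0.32, and 2 were called higher and 2 lower at 25 mM, with a median of -0.07. By limma 7 of the 11 had an unadjusted p under 0.05 at 5 mM and 4 at 25 mM. Of the 13575 tested MA probe sets, 5147 had one at 5 mM and 6101 at 25 mM. On MA, 11.9% were called higher and 16.8% lower at 5 mM, and 15.1% higher and 20.2% lower at 25 mM. The counts of calls at 25 mM were near those shares. In single cultures the medians of the fatty acid enzymes relative to GM_25mM were 0.36, 0.25 and 0.49 in DM_5mM, -0.03, 0.08 and -0.09 in DM_25mM and 0.20, 0.27 and 0.08 in GM_5mM.

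Acly, Acss2 and Me1 supply the route with acetyl-CoA and NADPH: Acly cleaves citrate, Acss2 activates acetate and Me1 is the cytosolic malic enzyme. None of the 3 was called through its chosen probe set at either glucose level, with changes from -0.37 (Me1) to 0.35 (Acss2) at 5 mM and from -0.10 to 0.28 at 25 mM. Acly was called higher at 5 mM through 1 of its 3 other probe sets (0.44, adjusted p = 0.0243) and, through its chosen one, with the 18S batch as a block (0.38, adjusted p = 0.00607). Acaca, the acetyl-CoA carboxylase, was below the filter on MA, with intensities of 6.265 to 48.86 over the 12 cultures. Its probe set on MB, with a mean intensity of 1249, was not called (-0.35 at 5 mM and -0.61, adjusted p = 0.0746, at 25 mM). At each glucose level every DM culture lay below every GM culture in that probe set. Fasn, the fatty acid synthase, had 797, 819.7 and 746 in DM_5mM, 554, 642 and 566 in DM_25mM, 528, 520.3 and 541 in GM_5mM and 484, 492 and 539.9 in GM_25mM. The DM_5mM cultures lay above all others, and those of DM_25mM just above both GM groups. It was called at 5 mM, 0.55 (SE 0.11, adjusted p = 0.00113), and not at 25 mM, 0.21 (SE 0.11, adjusted p = 0.145).

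Among the stearoyl-CoA desaturases, Scd2 was higher in DM and Scd1 was not called. Scd2 had 4658, 3197 and 4505 in DM_5mM, 3970, 3700 and 3123 in DM_25mM, 2137, 2103 and 2657 in GM_5mM and 2490, 2680 and 2278 in GM_25mM, with every DM culture above every GM culture, and changed by 0.82 (SE 0.18, adjusted p = 0.00285) at 5 mM and 0.53 (SE 0.18, adjusted p = 0.0336) at 25 mM. The call at 25 mM was lost without DM_25mM-1, without DM_25mM-2 and without any one GM_25mM culture, with a lowest value of 0.45 (adjusted p = 0.1125), while 2 other probe sets of the gene gave 1.14 and 1.47, both called. Scd1 had 0.35 (SE 0.13, adjusted p = 0.0682) at 5 mM and -0.07 (SE 0.13, adjusted p = 0.713) at 25 mM. With the 18S batch as a block it was called higher at 5 mM (0.28, adjusted p = 0.0338), while its other probe set had -0.15 there and was not called.

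The Elovl elongases and the Fads desaturases were called lower or not called. Fads1, the delta-5 desaturase of polyunsaturated fatty acids, had 286, 353 and 343 in DM_5mM, 175, 251 and 207 in DM_25mM, 485, 449 and 368 in GM_5mM and 354, 347 and 406 in GM_25mM, and DM_25mM lay below every other group. Its change was -0.38 (SE 0.15, adjusted p = 0.0716), not called, at 5 mM and -0.76 (SE 0.15, adjusted p = 0.00117) at 25 mM, where its probe set on MB was not called (-0.41, adjusted p = 0.356). Elovl6, which elongates palmitate, had 322, 392 and 294 in DM_5mM, 235, 222 and 226 in DM_25mM, 396, 415 and 337 in GM_5mM and 312, 369.7 and 344 in GM_25mM, and its change was -0.18 (SE 0.13, adjusted p = 0.351) at 5 mM and -0.54 (SE 0.13, adjusted p = 0.00512) at 25 mM. Median centring ended its call at 25 mM (-0.34, adjusted p = 0.0624), and a second probe set on MA was called there (-0.86, adjusted p = 0.00541), while its probe set on MB was not (-0.07). Fads2 and Elovl5 were not called at either level, with -0.39 and -0.30 at 25 mM. With the 18S batch as a block Fads2 was called lower at 25 mM (-0.46, adjusted p = 0.0471). Acsl3, an acyl-CoA synthetase of the endoplasmic reticulum and lipid droplets, stood apart from them, with MB intensities of 4140, 5281 and 3953 in DM_5mM, 4386, 4794 and 4424 in DM_25mM, 2367, 2593 and 1539 in GM_5mM and 1466, 1505 and 1696 in GM_25mM. All DM cultures were above all GM cultures, and the change was 1.06 (SE 0.19, adjusted p = 0.00101) at 5 mM and 1.53 (SE 0.19, adjusted p = 1.57e-05) at 25 mM. Its 2 other probe sets had -0.20 and 0.34 at 5 mM, neither called, and 1.49, called, and 0.09, not called, at 25 mM. With the mean of its probe sets the change at 5 mM was 0.40 (adjusted p = 0.451) and was not called.

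**Figure D4:**
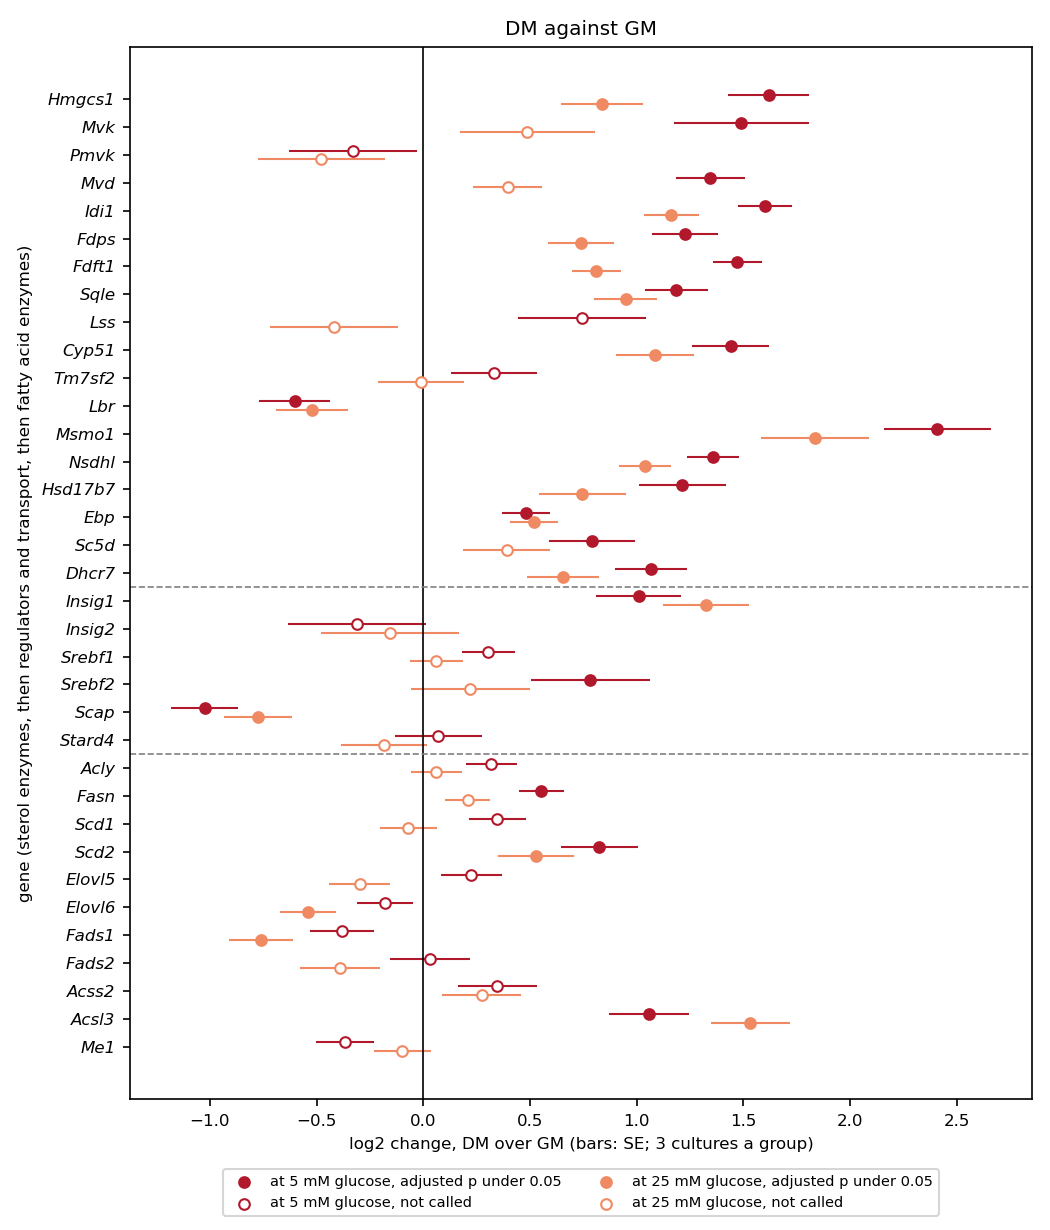
Log2 change in DM over GM for the 35 tested genes, at 5 mM glucose (dark) and 25 mM glucose (light), with SE bars from limma (3 cultures a group) and filled points for an adjusted p under 0.05. The sterol enzymes lie mostly right of 0 and further right at 5 mM, with Msmo1 at 2.41 and 1.83, whereas Lbr and Scap lie left of 0 at both.

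The comparisons at 5 mM and 25 mM share no culture, but both take their spread from 1 fit of all 4 groups, so their tests are not independent. Over all 35 tested genes, 19 were called higher and 2 lower in DM at 5 mM, and 14 higher and 4 lower at 25 mM. Of these, 14 were higher and 2 lower at both levels, 5 more were called higher at 5 mM only (Mvk, Mvd, Sc5d, Srebf2 and Fasn), and 2 more were called lower at 25 mM only (Elovl6 and Fads1). On MA, 11.9% of all tested probe sets were called higher and 16.8% lower at 5 mM, and 15.1% higher and 20.2% lower at 25 mM. For 28 of the 35 genes the log2 change was larger at 5 mM than at 25 mM. The difference between those changes is the interaction of medium and glucose, which is described after the glucose comparisons. Within the low-18S cultures at 5 mM, DM_5mM-2 can be set against GM_5mM-1 and GM_5mM-2, and the median over the 18 sterol enzymes was 1.20. Within the high-18S cultures at 5 mM it was 1.26. All tested MA probe sets had medians of -0.04 and -0.05 in these comparisons. With the batch as a block all 21 calls at 5 mM and all 18 at 25 mM remained, and with high-18S cultures alone 17 and 18 remained. The 4 lost at 5 mM were Lbr, Ebp, Fasn and Srebf2.

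In DM, 5 mM glucose went with higher mean levels of 32 of the 35 genes, most of them by amounts that did not pass the test one by one. The median log2 change for 5 mM against 25 mM in DM was 0.48 over the 35 genes, 0.53 over the sterol enzymes and 0.46 over the fatty acid enzymes, against 0.01 over all tested probe sets, of which 51.2% were positive. In 20 of the 35 every DM_5mM culture lay above every DM_25mM culture, and in 0 of them below, where 7.72% of tested probe sets on MA were all above and 6.75% all below. Calls were few: 2 genes, both sterol enzymes and both higher, where 0.626% of MA probe sets were called higher and 1.01% lower. These cultures of DM_5mM also enter the comparison of DM with GM at 5 mM, so the values are not independent of those above.

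The 2 called genes were Fdft1, with 935, 1006 and 1021 in DM_5mM and 549.6, 609 and 554 in DM_25mM, and Idi1, with 712, 766 and 818 in DM_5mM and 528, 422 and 548 in DM_25mM. Fdft1 changed by 0.77 (SE 0.12, adjusted p = 0.00248) and kept its call under all alternatives that were run. Idi1 changed by 0.60 (SE 0.13, adjusted p = 0.0259) and lost its call under several, among them the fit within the high-18S cultures (0.67, adjusted p = 0.0628) and the mean of its probe sets (0.54, adjusted p = 0.195). Leaving out any DM culture but DM_25mM-3 also ended it, with changes of 0.49 to 0.65. Of the other sterol enzymes, Mvk at 0.87 (SE 0.32), Msmo1 at 0.75 (SE 0.25), Lss at 0.66 (SE 0.30), Hmgcs1 at 0.64 (SE 0.19) and Mvd at 0.64 (SE 0.16) had larger changes than Idi1 without passing the test. The other probe set of Mvk had 0.14, and the 3 of Hmgcs1 had 0.47, 0.36 and 0.47. Lbr was the 1 sterol enzyme with no rise in its mean, at -0.03 (SE 0.17).

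Among the fatty acid enzymes 10 of 11 were positive and 0 were called by limma, while 7 had an unadjusted p under 0.05. Of the 13575 tested MA probe sets, 1404 had one. Fads2 had 226, 262 and 309 in DM_5mM and 166, 131 and 191 in DM_25mM, Fads1 had 286, 353 and 343 in DM_5mM and 175, 251 and 207 in DM_25mM, and Elovl6 had 322, 392 and 294 in DM_5mM and 235, 222 and 226 in DM_25mM. For each of these 3 desaturases and elongases every DM_5mM culture lay above every DM_25mM culture, and the changes were 0.65 (SE 0.19, adjusted p = 0.13) for Fads2, 0.60 (SE 0.15, adjusted p = 0.072) for Fads1 and 0.51 (SE 0.13, adjusted p = 0.0795) for Elovl6. The second MA probe set of Elovl6 was called, with 182, 155 and 163 in DM_5mM and 80.96, 40.1 and 71.97 in DM_25mM, a change of 1.18 (SE 0.21, adjusted p = 0.00823). Its probe set on MB went the other way without passing the test, at -1.07 (SE 0.55, adjusted p = 0.892), and overlapped. The Fads1 probe set on MB had 0.09 (adjusted p = 0.998) and overlapped. The other MA probe set of Fads2 overlapped too, with 116.9, 221 and 221 in DM_5mM and 122.3, 131.9 and 182.8 in DM_25mM. Through their chosen probe sets, Acly (0.47), Scd1 (0.47), Elovl5 (0.46) and Fasn (0.41) also separated without overlap, whereas Scd2 (0.18), Me1 (0.07), Acss2 (0.15) and Acsl3 (-0.04) overlapped. Among the regulators, Insig1 separated without overlap at 0.48 (SE 0.20) and Scap overlapped at -0.13 (SE 0.16), and none was called.

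The 18S batch moved the count of calls in this comparison. Each DM group held 1 low-18S culture, so the fit with the batch as a block gives the same log2 changes. It called 10 sterol and 7 fatty acid enzymes, all higher, where it called 1.94% of MA probe sets higher. The sterol enzymes were Hmgcs1 (adjusted p = 0.000991), Mvk, Mvd, Idi1, Fdps, Fdft1, Sqle, Cyp51, Msmo1 and Nsdhl, and the fatty acid enzymes Acly (adjusted p = 0.00791), Scd1, Elovl6, Fasn, Fads1, Elovl5 and Fads2. Between the 2 low-18S cultures, DM_5mM-2 exceeded DM_25mM-3 in 34 of the 35 genes, with a median difference of 0.46, where it did so in 7195 of the 13575 tested MA probe sets. Between the high-18S cultures of DM, 32 of the 35 were positive, also with a median of 0.46, where 7013 of the 13575 tested MA probe sets were positive. In the same comparison 3 of 4 genes of cycling cells and 1 of 6 markers of differentiating muscle, Mb, were called lower at 5 mM, and the part these have in the result was not tested.

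In GM, no gene of either route was called between the glucose levels. The median log2 change for 5 mM against 25 mM was 0.11 over the 35 genes, 0.08 over the sterol enzymes and 0.15 over the fatty acid enzymes. Of the 35, 25 were positive (71.43%), among them 9 of 11 fatty acid enzymes, against 49.69% of all tested probe sets. In 5 of the 35 every GM_5mM culture lay above every GM_25mM culture, and in 0 below, where 8.43% of tested MA probe sets were all above and 9.25% all below. By limma 0 of the 35 were called, where 0.00369% of all tested probe sets were called. An unadjusted p under 0.05 was found for 3 genes, a share near that of all tested probe sets (2398 of 27081). Insig1 had the largest of these changes, with 637, 814 and 561 in GM_5mM and 383, 462 and 292 in GM_25mM, which did not overlap, and a change of 0.80 (SE 0.20, adjusted p = 0.544). The other two were Me1 at 0.33 (SE 0.13, adjusted p = 0.443) and Acsl3 at 0.44 (SE 0.19, adjusted p = 0.673). The 95% intervals were -0.14 to 0.36 for Fdft1, -0.55 to 0.27 for Hmgcs1 and -0.16 to 0.30 for Fasn, so smaller changes in GM could not be detected. GM_5mM held 2 low-18S cultures and GM_25mM 0, so within a batch only GM_5mM-3 can be set against GM_25mM.

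**Figure D5:**
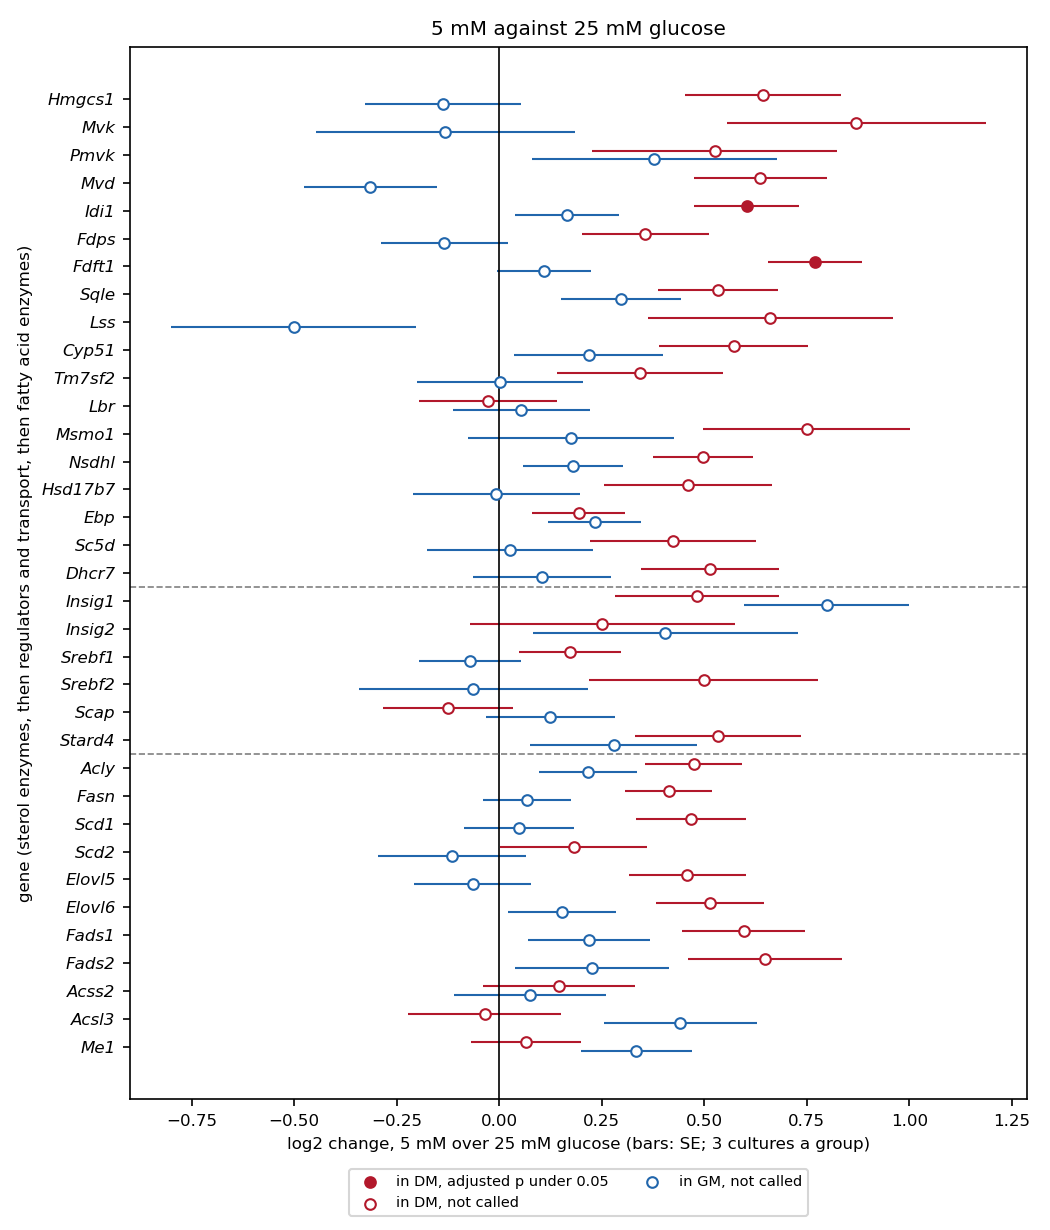
Log2 change at 5 mM over 25 mM glucose for the 35 tested genes, in DM (red) and in GM (blue), with SE bars from limma (3 cultures a group) and filled points for an adjusted p under 0.05. In DM 32 of the 35 lie right of 0, with Fdft1 and Idi1 filled, while in GM 25 of the 35 do, with a median of 0.11 and no point filled.

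Whether the glucose change differed between DM and GM is the interaction. It was positive for 28 of the 35 genes, with a median of 0.35 against 0.01 over all tested probe sets, and 0 of the 35 were called by limma, where 0.277% of all tested probe sets were called. An unadjusted p under 0.05 was found for 10 of them, and for 2485 of the 27081 tested probe sets. The smallest adjusted p among the 35 belonged to Mvd, at 0.95 (SE 0.23, adjusted p = 0.11), followed by Fdft1 at 0.66 (SE 0.16, adjusted p = 0.121). Hmgcs1 had 0.78 (SE 0.27, adjusted p = 0.281) and Lss 1.16 (SE 0.42, adjusted p = 0.304). The 3 other probe sets of Hmgcs1 had -0.19, -0.04 and 0.53. Over all alternatives, among them the mean of its probe sets, the value of this gene ran from 0.27 to 0.97. The other probe set of Mvk had 0.02, where the chosen one had 1.002 (SE 0.45). No single gene passed the test of this difference, and for Hmgcs1 and Mvk its size depended on the probe set.

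Genes around the 2 routes were taken from 5 further lists. Of 10 tested genes that process or degrade SREBP and its partners, 2 were called higher and 4 lower in DM at 5 mM, and 4 higher and 2 lower at 25 mM. The shares of all tested probe sets on MA, which holds 60 of the 72 tested genes of the 5 lists, were 11.9% higher and 16.8% lower at 5 mM and 15.1% higher and 20.2% lower at 25 mM. Fbxw7, the ubiquitin ligase subunit that marks nuclear SREBP and other proteins for degradation, had 79.2, 93.9 and 114 in DM_5mM, 176, 189.9 and 254 in DM_25mM, 58.9, 43.4 and 38.4 in GM_5mM and 65.2, 55.96 and 42.8 in GM_25mM. It was higher in DM by 0.79 at 5 mM and 1.60 at 25 mM, and it was lower at 5 mM than at 25 mM in DM, with a change of -0.96 (SE 0.20, adjusted p = 0.0249) and no overlap between the 2 DM groups. Mbtps1, the Golgi protease that makes the first cut in SREBP, was lower in DM, with changes of -0.65 and -0.44, both called. Ufd1, which helps to extract ubiquitinated proteins from the endoplasmic reticulum, was higher at 25 mM (0.78) and was not called at 5 mM (0.31), and Pgrmc1, a membrane protein that binds Insig1 and Cyp51, was lower, with changes of -0.59 and -0.84, both called.

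Of 9 tested genes of sterol uptake, esterification and efflux, 0 were called higher and 1 lower at 5 mM, and 0 higher and 3 lower at 25 mM, where the MA shares were those just given. Npc2, which hands cholesterol on within the lysosome, had 1389, 1809 and 1431 in DM_5mM, 1113, 1311 and 1506 in DM_25mM, 3438, 3164 and 3245 in GM_5mM and 3088, 2774 and 2933 in GM_25mM, and its DM cultures all lay below its GM cultures, with changes of -1.09 at 5 mM and -1.16 at 25 mM. Lipa, the lysosomal acid lipase that frees cholesterol from its esters, was lower in DM at 25 mM (-0.75) and was higher at 5 mM than at 25 mM in DM, with a change of 0.62 (SE 0.14, adjusted p = 0.0398). Vldlr, a lipoprotein receptor, was lower at 25 mM (-1.22). In the isoprenoid branches, 13 tested genes gave 1 higher and 1 lower at 5 mM and 1 higher and 3 lower at 25 mM, against MA shares of 11.9% and 16.8% at 5 mM and 15.1% and 20.2% at 25 mM. Rabggtb, the catalytic subunit of the enzyme that prenylates Rab proteins, was the higher one (0.34 and 0.56), Zmpste24, the protease that trims prenylated prelamin A, was lower at both (-0.38 and -0.46), and Rce1, a protease that trims prenylated proteins, was lower at 25 mM (-0.98), as was Rabggta, the partner subunit of Rabggtb (-0.65).

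Of 18 tested genes of fatty acid supply, elongation and activation, 4 were called higher and 2 lower at 5 mM, and 5 higher and 4 lower at 25 mM. The MA shares were 11.9% and 16.8% at 5 mM and 15.1% and 20.2% at 25 mM, and the lower counts were near them. Hacd1, a dehydratase of fatty acid elongation that is abundant in muscle, had 2146, 2264 and 1995 in DM_5mM, 2491, 2506 and 2440 in DM_25mM, 862, 762 and 596 in GM_5mM and 459, 528 and 704 in GM_25mM and changed by 1.52 and 2.12. Acsl5, an acyl-CoA synthetase, had 179.9, 179 and 161 in DM_5mM, 117, 116 and 146 in DM_25mM, 580.4, 565 and 486 in GM_5mM and 588, 499 and 542 in GM_25mM and changed the other way, by -1.54 and -1.95. Both separated DM from GM without overlap. Pgd, which yields NADPH in the pentose phosphate pathway, was lower (-1.08 and -1.46), and Acsl6 was higher (0.94 and 1.30). Of 22 tested genes of glycerolipid and phospholipid synthesis, 4 were called higher and 2 lower at 5 mM, and 5 higher and 1 lower at 25 mM. The last enzymes of phosphatidylcholine synthesis differed in direction, with Chpt1 higher at 1.12 and 1.68 and Cept1 lower at -0.97 and -1.20. The acyltransferases Agpat3 and Agpat5 were higher, Agpat3 by 1.16 and 1.10 and Agpat5 by 0.66 and 1.25.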

How the data were processed

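The values are linear probe set intensities as the authors deposited them. How the authors made these intensities (software, scaling target, filters) is not given in the sources used here, and the files show only that each array has a trimmed mean near 150. Control probe sets were left out, log2(intensity + 20) was taken, and the tested probe sets were those with a 12-array mean above the 40th percentile of their design (intensity 33.2 on MA and 54.1 on MB), which left 13575 of 22690 and 13506 of 22575. Gene symbols come from the annotation supplied for each design, and members name 1 gene alone. Each design was fitted with limma 3.58.1 (R 4.3.3), 4 group means, eBayes with trend, two-sided tests and Benjamini-Hochberg adjustment within the design. Fold changes are on the scale of log2(intensity + 20). The number of arrays limits the precision.

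The members, lists and tests were chosen with earlier results of these data known. All 37 members are named, and of each further list up to 4 genes with the smallest adjusted p among those called. Alternatives covered pseudocounts of 1 and 64, filters, scalings, trend, array weights, single cultures left out, replicate number and 18S batch as blocks, high-18S cultures alone, and the mean of a gene's probe sets. Promoter windows and motif positions come from RefSeq (GRCm38.p6), read on both strands. The main fit did not pair cultures by replicate number. Deviations of same-numbered cultures from their group means correlated between -0.563 and 0.521 on MA, with a median of -0.0338. For cultures with different numbers the range was -0.582 to 0.719, with a median of 0.00111.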

Additional observations from a re-analysis of the deposited data

Results flagged for a closer look

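No gene of sterol or fatty acid synthesis passed the test for a glucose change that differs between DM and GM. Among the marker lists, 4 genes passed the test of the interaction of medium and glucose, each with a log2 value that is the change at 5 mM against 25 mM in DM minus that in GM. They were Mb, the muscle myoglobin, at -1.751 (adjusted p = 0.0444), and the genes of cycling cells Ube2c at -1.248 (adjusted p = 0.00844), Mki67 at -1.035 (adjusted p = 0.0215) and Ccnb2 at -0.8804 (adjusted p = 0.0444), all by limma with Benjamini-Hochberg adjustment. In DM alone all 4 were lower at 5 mM than at 25 mM, with changes of -1.64 (SE 0.25) for Mb, -1.29 (SE 0.13) for Ube2c, -0.92 (SE 0.13) for Mki67 and -0.72 (SE 0.13) for Ccnb2. Single outlying cultures were not tested for, since each group holds 3.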

How the results depend on the processing

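No called change reversed. Of the 18 genes called in DM against GM at 25 mM, 14 kept the call under every alternative (Elovl6, Hsd17b7, Lbr and Scd2 did not), and of the 21 at 5 mM 16 did (Acsl3, Ebp, Fasn, Lbr and Srebf2 did not). Where a count moved by over 1.5 times, the cause was not tested beyond what the alternative itself changes. For DM against GM at 5 mM, probe sets called numbered 2789 with high-18S cultures alone against 4728, regulators 5 with array weights against 3, and fatty acid enzymes 5 with the 60th percentile, 7 with array weights and 5 with the 18S block against 3 (3 to 5 with single cultures left out). For glucose in DM, probe sets called numbered 109 with only the arrays compared, 607 with the 18S block and 131 to 243 with single cultures left out, against 231. The sterol enzymes called there numbered 4 with quantile normalization, 1 without trend, 1 with only the arrays compared, 5 with array weights, 10 with the 18S block, 1 with the mean of probe sets and 1 to 2 with single cultures left out, against 2. The fatty acid enzymes numbered 2 with the 60th percentile, 2 with quantile normalization, 7 with the 18S block, 1 with the mean of probe sets and 0 to 1 with single cultures left out, against 0. For glucose in GM, the 1 probe set called became 0 with a pseudocount of 64, with only the arrays compared and with high-18S cultures alone, 815 with array weights and 0 to 5 with single cultures left out. For the interaction, probe sets called numbered 41 without trend, 333 with array weights, 130 with the 18S block, 17 with high-18S cultures alone and 26 to 104 with single cultures left out, against 75, and sterol enzymes numbered 1 with quantile normalization and 2 with array weights (Mvd and Hmgcs1), against 0.

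With the replicate number as a block, the interaction called 30 probe sets against 75. That block ended the call of Scd2 at 25 mM (adjusted p = 0.0573) and of Srebf2 at 5 mM (adjusted p = 0.0783) and of no other member, and added that of Lss at 5 mM (0.745, adjusted p = 0.0395). Median centring shifted the median of all MA probe sets at 25 mM to 0.09 from -0.11 and the share of calls that were higher to 65.5% from 46.0%, ended the calls of Lbr and Elovl6, and moved the share for the interaction to 15.1% from 30.7%. In GM it shifted the median for glucose to 0.11 from -0.00288 on MA. Signal over background limits Acaca on MA, where it was below the filter.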
